A study of Mus musculus with 4 samples.

Results

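The protocadherins analysed here were the genes of the deposited tables of mouse embryonic brain RNA that carried the biotype protein_coding and a name beginning with Pcdh. The rule found 65 genes among 22414 listed gene IDs, and 64 of them were in both tables. They were split by name into 12 Pcdha, 21 Pcdhb and 20 Pcdhg genes, which lie in 3 neighbouring clusters, and 12 non-clustered genes. RNA was sequenced from brain at embryonic day 13, on a C57BL/6 background, in 2 Wt1fl/fl samples, which carry floxed Wt1 alleles and are also labelled WT, and 2 Wt1CKO samples, a conditional knockout. The labels name neither the Cre line nor the part of the brain, and give no hint whether a sample was 1 embryo or a pool. All p-values therefore reflect variation among these 4 samples, which may be technical. The product of Wt1 is a zinc finger protein that binds DNA, and by its title the study concerns the role of this factor in neural progenitors. Its own transcript is not analysed here and gives no check of the genotypes. Samples are called Wt1fl/fl or Wt1CKO replicate 1 or 2, and each deposited table paired the samples of 1 number.

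Protocadherins are cadherin-like adhesion proteins of the cell surface. In the alpha and gamma clusters each variable exon has its own promoter and encodes a whole extracellular part, which is spliced to constant exons for the common cytoplasmic tail, whereas the beta genes have a single exon and no such tail. Neurons switch on a partly random subset of the alternative alpha, beta and gamma genes through the factor CTCF and cohesin, and the resulting surface code lets branches of the same neuron recognise and avoid each other. The C-type genes at the ends of the alpha and gamma clusters are expressed more uniformly. Non-clustered protocadherins, mainly the delta1 and delta2 groups, are expressed in regional patterns in the developing brain and act in cell sorting, axon growth and synapse formation.

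The libraries held 16219310 to 17704698 counts, and the TMM scaling factors of edgeR ran from 0.991 to 1.01. A few whole-library differences bear on what follows. Wt1fl/fl replicate 1 had 74251 counts of the ribosomal RNA gene CT010467.1, against 3058 to 7902 in the other 3 libraries. Wt1CKO replicate 1 had 4 counts of Xist, the RNA that silences an X chromosome in females, against 13086 to 16472 in the others, and Pcdh11x and Pcdh19 are X-linked. All listed markers of radial glia, neurons and the dorsal and ventral telencephalon had counts in every library.

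Of the 65 genes, 55 lay on chromosome 18. In GRCm38 coordinates as the tables give them, the alpha cluster spanned chr18:36930184-37187661, the beta cluster chr18:37294812-37524479 and the gamma cluster chr18:37661793-37841873, all on the plus strand. Pcdh1 and Pcdh12 followed on the same chromosome. The alpha and gamma genes were annotated with their constant exons, so that all 32 of them shared at least 2116 exon bases with other members. Pcdha1 nevertheless had 2 to 8 counts per library, so reads from the shared exons had not been added to every gene, and levels are given here as CPM, the count scaled to the library's total, per kilobase of exon that no other gene shares. Unshared exons can still resemble each other. The share of their 50-base words that also occurred in another gene was 15.1% in the median alpha gene and at most 25.5%, 9.68% in the median gamma-B gene and 3.35% in the median beta gene. It was 0.601% in the median gamma-A gene, and 0 in every C-type and non-clustered gene. How the authors' counting treated reads of such words is not given in the sources used here, so values of single alpha, gamma-B and beta genes are uncertain to that degree.

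The non-clustered genes took most of the protocadherin counts, which in these sums are not scaled to exon length. Summed over both tables' 64 genes, protocadherins took 564.7 CPM in Wt1fl/fl replicate 1, 613.4 in Wt1fl/fl replicate 2, 601.6 in Wt1CKO replicate 1 and 591.2 in Wt1CKO replicate 2. The 12 non-clustered genes took 370.5 to 391.8 CPM of this, the gamma genes 121.3 to 149.8, the beta genes 55.0 to 61.3 and the alpha genes 14.6 to 17.2. The gamma sum of Wt1fl/fl replicate 1, 121.3 CPM, had a 95% Wilson interval of 116.0 to 126.8, and the other 3 libraries began at 140.5 or above. This was the library with the high ribosomal RNA count, 74251 of its 16219310 counts, whose part in the low sum was not tested. Over TMM-scaled library totals the gamma sum was 122.5 CPM in Wt1fl/fl replicate 1 and 145.3 to 149.3 in the others. Reads here have no molecular identifiers, so the Wilson intervals cover counting error only.

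Per kilobase of unshared exon the highest level was that of Pcdhgc3, the C-type gene whose protein acts in dendrite growth, at 17.8 ± 3.22 CPM per kb (SD over the 4 libraries). Pcdh8, an activity-regulated delta2 protocadherin, followed at 10.5 ± 0.953, then Pcdh1 at 7.92 ± 1.43 and Pcdhgb6 at 6.79 ± 0.964. Pcdh1 and Pcdhgb6 did not differ beyond their spread. Pcdh10, which guides growing axons, had 5.74 ± 0.492 CPM per kb, Pcdh19, mutated in an X-linked epilepsy, had 5.54 ± 0.446, and Pcdhga11 had 5.21 ± 1.09, so these 3 lay within each other's spread. At the lower end were Pcdh15, the tip-link protein of hair cells, at 0.175 ± 0.0111, Pcdhb14 at 0.161 ± 0.0663 and Pcdha1 at 0.0994 ± 0.0609. Pcdha8 was listed in the first table only, with 3 and 5 counts.

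By class, the median level was 5.54 CPM per kb for the 5 delta2 genes and 2.80 for the 4 delta1 genes. The 11 gamma-A genes had a median of 1.74, the 6 gamma-B genes 1.68 and the 5 C-type genes 1.79. The beta median of 0.479 and the alpha median of 0.481, over 9 alternative alpha genes, were close to each other and lower than those of the gamma classes. The C-type genes were far apart: the highest of the 5, Pcdhgc3, was 61.3 times the lowest, Pcdhac1. Pcdhac2, which serotonergic axons use for tiling, had 1.79 CPM per kb, Pcdhgc4, needed for the survival of interneurons, had 3.33, and Pcdhgc5 had 0.610. Taking all exon bases in place of the unshared ones lowered the Pcdha median from 0.481 to 0.212 and the Pcdhg median from 1.75 to 0.964. The order of the genes depended on this choice. Over all exon bases Pcdhgc3 had 5.88 CPM per kb, below Pcdh8 at 9.52 and Pcdh1 at 7.92, and Pcdhga11 had 1.38.

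**Figure D1:**
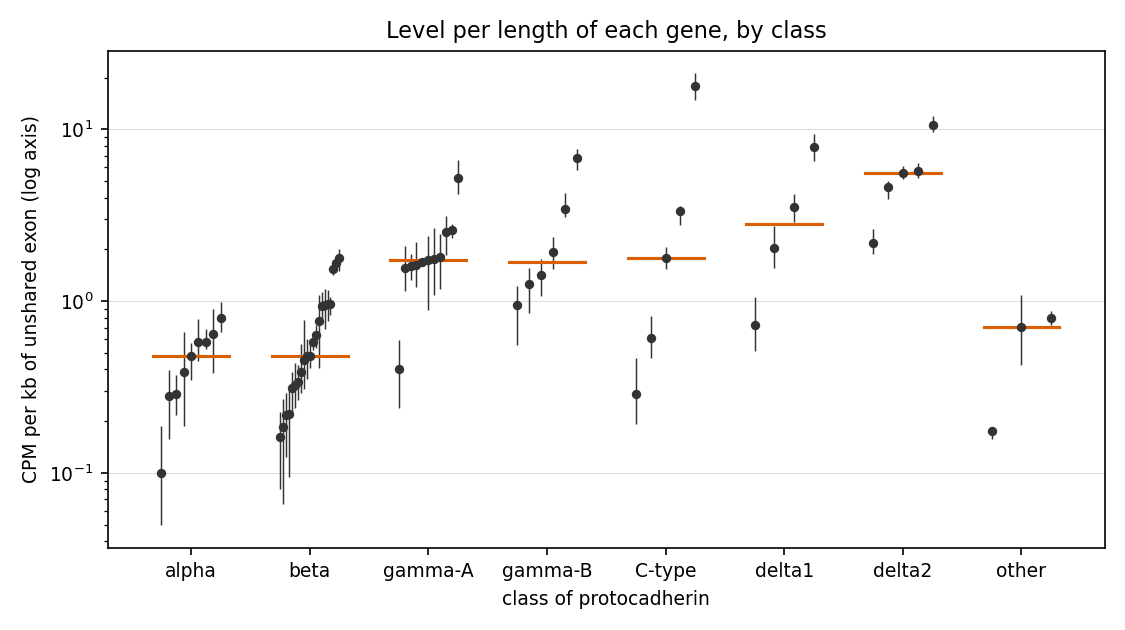
Each point is 1 protocadherin gene, placed by class along the x axis and by its mean CPM per kb of unshared exon over the 4 libraries on the log y axis, with thin lines from the lowest to the highest library and an orange bar at the class median. The alpha and beta medians lie near 0.48, the delta2 median is 5.54, and Pcdhgc3 at 17.8 is the highest point.

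Within the alternative alpha genes the level ran from Pcdha1 at 0.0994 to Pcdha3 at 0.792 CPM per kb, with Pcdha7 at 0.642 and Pcdha11 at 0.282. Among the beta genes it ran from Pcdhb14 and Pcdhb2, at 0.186, to Pcdhb20 at 1.54, Pcdhb7 at 1.68 and Pcdhb17 at 1.77. Among the alternative gamma genes it ran from Pcdhga1 at 0.400 to Pcdhgb6. The position of a gene along the cluster and its level had a Spearman rho of 0.527 over the 17 alternative gamma genes, with 0.338 to 0.596 in single libraries. For the 21 beta genes it was -0.04 and for 9 alpha genes 0.12. These correlations are across genes, which share libraries and differ in sequence similarity, and are given as a description.

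The share of each cluster's counts that fell on its C-type genes describes how the cluster was used. In the alpha cluster it was 35.4% in Wt1fl/fl replicate 1, 43.0% in Wt1fl/fl replicate 2, 43.4% in Wt1CKO replicate 1 and 35.3% in Wt1CKO replicate 2. The order of the genotypes turned between the numbers, and the 95% Wilson intervals overlapped. In the gamma cluster the C-type share was 34.0% and 37.0% in Wt1fl/fl and 28.7% and 32.6% in Wt1CKO, replicates 1 and 2. Both Wt1CKO shares were below both Wt1fl/fl shares, by 34.0% (Wilson interval 32.0 to 36.1%) against 32.6% (30.9 to 34.5%) for the closest libraries. Gamma-A genes took 34.0% and 36.4% in Wt1fl/fl and 39.0% and 38.2% in Wt1CKO, again without overlap, and gamma-B genes 32.0% and 26.6% in Wt1fl/fl and 32.3% and 29.2% in Wt1CKO, with overlap. The Wilson intervals of the closest libraries overlapped for the C-type and the gamma-A shares. Shares of 1 cluster sum to the whole, so these values are not independent, and 2 libraries against 2 allow no exact test that could pass the threshold.

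No protocadherin passed the test between the genotypes. In edgeR's quasi-likelihood test on all 15933 genes kept by a low-count filter, 0 of the 61 protocadherins tested had a Benjamini-Hochberg adjusted p under 0.05, and over all genes 0.00628% did. At an unadjusted p under 0.05 there were likewise 0 of 61, against 1.56% of all genes, and DESeq2 and limma-voom also called 0. Pcdha8 was not in both tables, and Pcdha1, Pcdha6 and Pcdhb12 had too few counts to be tested. A p that misses the threshold with 2 libraries a group does not show that the genotypes had the same level.

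The 3 clustered genes with the smallest genotype p-values were Pcdhga4, Pcdhga12 and Pcdha9, all alternative genes whose proteins take part in self-recognition. Pcdhga4 had 2.90 and 3.26 CPM in Wt1fl/fl replicates 1 and 2 and 4.91 and 4.72 CPM in Wt1CKO. Both Wt1CKO libraries were above both Wt1fl/fl libraries, with a log2 difference of 0.63 (SE 0.08, n = 2 per group, edgeR unadjusted p = 0.0526, adjusted p = 1). Pcdhga12 had 4.87 and 6.93 CPM in Wt1fl/fl and 8.08 and 10.1 CPM in Wt1CKO, a log2 difference of 0.60 (SE 0.29, edgeR adjusted p = 1), which was 0.38 without Wt1fl/fl replicate 1. Pcdha9 had 12 and 8 counts in Wt1fl/fl and 18 and 28 in Wt1CKO, which is 0.740 and 0.466 CPM against 1.02 and 1.63. These groups do not overlap either, and the log2 difference was 1.11 (SE 0.42, edgeR adjusted p = 1) on few counts, and 0.73 without Wt1CKO replicate 2.

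Counting libraries in place of testing, both Wt1CKO libraries exceeded both Wt1fl/fl libraries for 12 of 61 protocadherins, which is 19.7% against 15.6% of all genes. Both lay below for 7, which is 11.5% against 11.8% of all genes. Of the 12, 7 were gamma genes, of 20 tested: Pcdhga2, Pcdhga4, Pcdhga5, Pcdhga12, Pcdhgb2, Pcdhgb4 and Pcdhgb6, named here after their values were seen. Pcdhgb6, the most abundant alternative gamma gene, had 15.9 and 14.8 CPM in Wt1fl/fl and 19.7 and 19.4 CPM in Wt1CKO. The pair of X-linked genes differed: Pcdh19 had 54.3 and 53.7 CPM in Wt1fl/fl and 63.7 and 58.7 CPM in Wt1CKO, without overlap, whereas the Pcdh11x libraries overlapped. None of these genes passed the test.

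The median log2 difference between genotypes was 0.12 for Pcdha, 0.01 for Pcdhb, 0.12 for Pcdhg and -0.06 for the non-clustered genes, beside 0.01 for all genes tested. It was not the same within the numbers. With number 1 alone the medians were 0.26, 0.23, 0.32 and 0.10, and with number 2 alone -0.17, -0.15, -0.16 and -0.06, in the same order. Markers of other tissue also differed between genotypes within the numbers: the 4 choroid plexus markers tested had a median log2 difference of 2.06 with number 1 and -1.68 with number 2, and 9 meningeal markers had -0.08 and -0.92. Ttr, the transthyretin gene of choroid plexus, had 0.247 and 12.4 CPM in Wt1fl/fl and 40.5 and 0.991 CPM in Wt1CKO, replicates 1 and 2. The part of these markers in the family medians was not tested. Leaving out Wt1fl/fl replicate 1, the library with the low gamma sum, turned the Pcdhg median to -0.06, and leaving out Wt1fl/fl replicate 2 raised it to 0.35. Of the 20 gamma genes, 8 were higher in Wt1CKO in both numbers (40.0%) and 3 were lower in both, beside 27.0% and 25.9% of all genes.

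**Figure D2:**
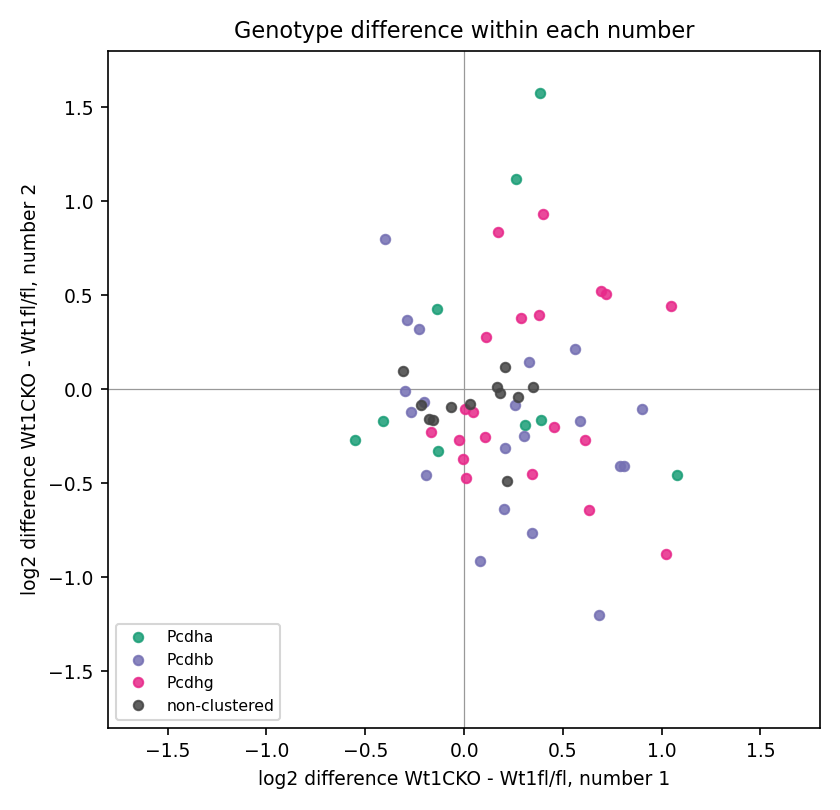
Each point is 1 of 61 protocadherins, with the log2 difference Wt1CKO minus Wt1fl/fl between the samples of number 1 on the x axis and of number 2 on the y axis, coloured by family. In each of the 3 clusters more points lie right of 0 than left of it and more lie below 0 than above it, with family medians of 0.23 to 0.32 for number 1 and -0.17 to -0.15 for number 2.

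The authors' deposited tables compare 1 library with 1 library and mark genes past their own thresholds. For number 1 the authors' deposited table marked 2 of 65 protocadherins, Pcdhga2 and Pcdhga9, which is 3.08% against 3.20% of all its genes. For number 2 the authors' deposited table marked 3 of 64, Pcdha7 and Pcdha9 as up and Pcdhb14 as down, which is 4.69% against 3.19%. No protocadherin was marked in both. Pcdhga9, named here after its values were seen, had a log2 fold change of 1.06 in the authors' deposited table for number 1 and -0.88 in that for number 2. Its CPM was 4.44 and 6.99 in Wt1fl/fl and 9.26 and 3.79 in Wt1CKO, replicates 1 and 2, so the highest and the lowest library were both Wt1CKO.

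**Figure D3:**
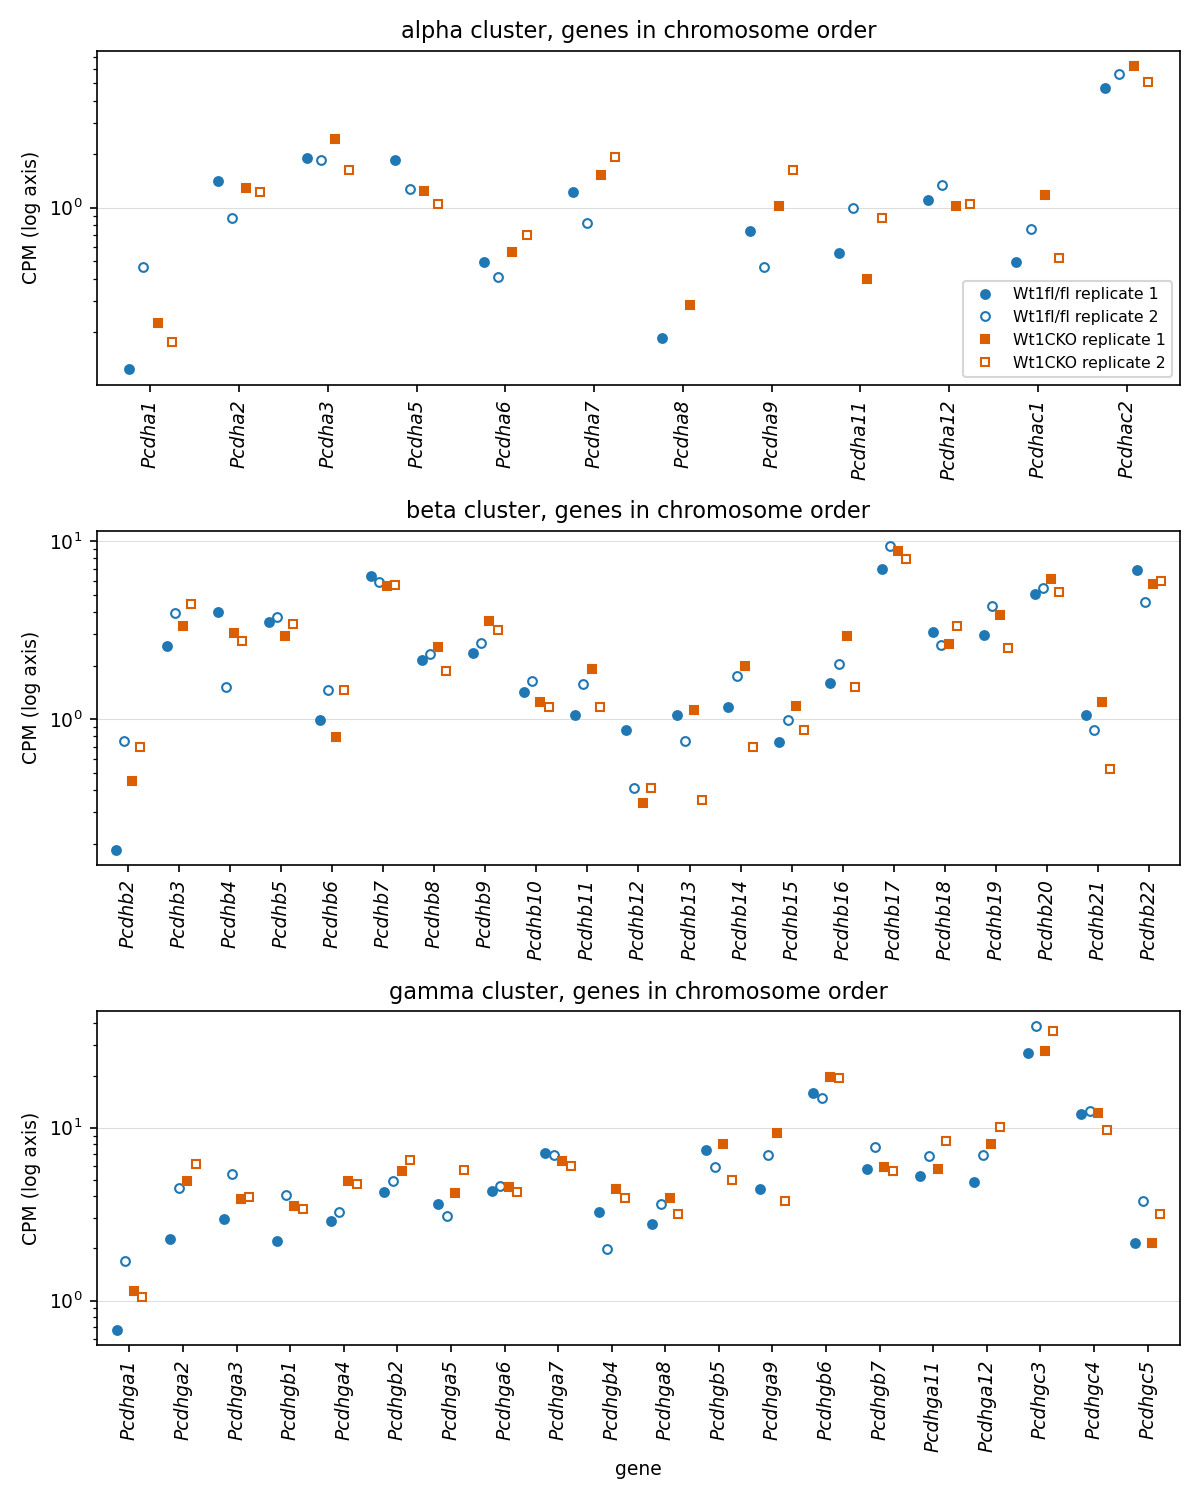
CPM on a log y axis for each gene of the alpha, beta and gamma clusters in chromosome order, with Wt1fl/fl libraries as blue circles and Wt1CKO libraries as orange squares, replicate 1 filled and replicate 2 open. Pcdhgc3 stands at 27.1 to 38.6 CPM with both open symbols above both filled ones, and Pcdhga4 shows both squares above both circles.

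The libraries of number 2 differed from those of number 1 in several non-clustered genes. With genotype as a term, edgeR's test called 6 of the 61 protocadherins between the numbers, which is 9.84% against 7.14% of all genes tested. Higher in number 2 were 2 of 61, beside 3.70% of all genes, and lower were 4 of 61, beside 3.44%. All 4 delta1 genes were among the 6, with Pcdh1 higher and Pcdh7, Pcdh9 and Pcdh11x lower. The remaining 2 were Pcdh20, lower, and Pcdhgc3, higher. The call depended on the tool: DESeq2 called 0 of 61 and 281 genes in all, while limma-voom called the same 6 genes as edgeR. With DESeq2, 6 of 61 protocadherins had an unadjusted p under 0.05. The share of all genes under that p was not counted, so this number has no background beside it. Without the genotype term 2 were called, Pcdh1 and Pcdh20. Libraries decided it too: in that fit on 3 libraries 0 were called without Wt1fl/fl replicate 1 or without Wt1CKO replicate 1, 2 without Wt1fl/fl replicate 2 (Pcdh11x and Pcdh20), and 4 without Wt1CKO replicate 2 (Pcdh1, Pcdh7, Pcdh11x and Pcdh20). No label says what the number stands for, so animals, litters, dissections and sequencing runs cannot be told apart.

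Pcdh1 (ENSMUSG00000051375, chr18:38185914-38212053, minus strand), a delta1 adhesion protein also found in epithelia, had 57.8 CPM in Wt1fl/fl replicate 1, 59.9 in Wt1CKO replicate 1, 82.4 in Wt1fl/fl replicate 2 and 78.6 in Wt1CKO replicate 2. Both libraries of number 2 were above both of number 1. The log2 difference was 0.45 (SE 0.05, n = 2 per number, edgeR adjusted p = 0.00649), and it was 0.50 within Wt1fl/fl and 0.39 within Wt1CKO. Pcdhgc3 (ENSMUSG00000102918, chr18:37806364-37841873, plus strand) had 27.1 and 27.6 CPM in number 1, Wt1fl/fl then Wt1CKO, and 38.6 and 36.1 CPM in number 2, in that order. Its log2 difference was also 0.45 (SE 0.06, edgeR adjusted p = 0.0320). It took 22.3% and 18.9% of the gamma cluster's counts in number 1 and 26.0% and 24.1% in number 2.

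The 3 delta1 genes that were lower in number 2 encode adhesion proteins of neurons. Pcdh7 (ENSMUSG00000029108, chr5:57717967-58133230, plus strand) had 22.8 and 18.6 CPM in number 1, Wt1fl/fl then Wt1CKO, and 13.1 and 14.0 CPM in number 2, in that order. It fell by 0.61 on the log2 scale (SE 0.20, edgeR adjusted p = 0.0244), by 0.81 within Wt1fl/fl and by 0.40 within Wt1CKO. The numbers did not overlap. Pcdh9 (ENSMUSG00000055421, chr14:93013410-93890679, minus strand) had 28.4 and 27.6 CPM in number 1 and 20.7 and 19.5 CPM in number 2, and fell by 0.48 (SE 0.02, edgeR adjusted p = 0.0348, or 0.0519 with no filter on low counts). Pcdh11x (ENSMUSG00000034755, chrX:120290259-120910619, plus strand), an X-linked gene, had 11.3 and 14.7 CPM in number 1 and 7.16 and 7.29 CPM in number 2. It fell by 0.84 (SE 0.17, edgeR adjusted p = 0.00931), and by 0.67 without Wt1CKO replicate 1, the library with 4 Xist counts, where number alone gave an edgeR adjusted p of 0.278.

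Pcdh20 (ENSMUSG00000050505, chr14:88464743-88471396, minus strand), a non-clustered gene outside the delta groups, had 79 and 106 counts in number 1 and 41 and 40 in number 2. In CPM these were 4.87 and 5.99 against 2.39 and 2.33, so the numbers were well apart. It fell by 1.20 on the log2 scale (SE 0.16, edgeR adjusted p = 0.0112), by 1.0 within Wt1fl/fl and by 1.32 within Wt1CKO. This was the largest of the 6 changes.

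Pcdh20 and Pcdh9 both lie on chromosome 14 and both were lower in number 2, and the sequences before their starts, from RefSeq on GRCm38.p6, are shown to compare them. Each is the 250 bases before the annotated start, 5′ to 3′ on the gene's strand, with CG dinucleotides in capitals.
Pcdh20, chr14:88471397-88471646, minus strand: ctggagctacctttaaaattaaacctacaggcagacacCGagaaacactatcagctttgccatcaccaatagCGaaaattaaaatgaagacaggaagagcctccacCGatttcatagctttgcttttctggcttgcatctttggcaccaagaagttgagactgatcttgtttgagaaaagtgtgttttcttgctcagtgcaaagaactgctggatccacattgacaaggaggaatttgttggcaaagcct
Pcdh9, chr14:93890680-93890929, minus strand: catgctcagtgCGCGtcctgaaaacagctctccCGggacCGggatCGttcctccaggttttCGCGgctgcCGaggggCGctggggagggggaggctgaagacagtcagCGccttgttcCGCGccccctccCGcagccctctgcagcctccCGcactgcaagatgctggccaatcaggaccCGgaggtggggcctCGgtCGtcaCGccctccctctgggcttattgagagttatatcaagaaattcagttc
The Pcdh20 stretch held 3 CG dinucleotides and 42.4% G and C, whereas the Pcdh9 stretch held 18 and 63.6%, so the pair that fell together differed in this respect. The promoter table, with windows of 300 bases that reach 50 bases past the start, matched 9 of the 65 members by symbol, with 10 promoters, all of non-clustered genes. Their median was 18 CG dinucleotides, beside 7 over all 32851 promoters. The letters GCGTGGGNG, a form of the WT1 binding motif that EGR factors share, were searched on both strands and occurred in 0 of the 10 and in 1.90% of all promoters. A match or its absence in these windows is a description of the letters only.

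The other non-clustered genes did not pass the test between the numbers. Pcdh10 had 89.5 and 81.4 CPM in number 1, Wt1fl/fl then Wt1CKO, and 100.3 and 90.3 CPM in number 2. Pcdh8 had 48.8 and 42.6 CPM in number 1 and 41.8 and 39.7 CPM in number 2. Both genes lay apart by number, though by little. Pcdh17, which acts at synapses of corticobasal circuits, had 25.2 and 29.7 CPM in number 1 and 34.1 and 24.4 CPM in number 2, with overlap. Pcdh18 had 21.1 and 24.3 against 26.8 and 26.6 CPM, and like Pcdh10 and Pcdh8 it lay apart by number. Pcdh12, an endothelial protocadherin, stayed between 4.41 and 5.30 CPM and Pcdh15 between 3.76 and 4.31 CPM in all 4 libraries.

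**Figure D4:**
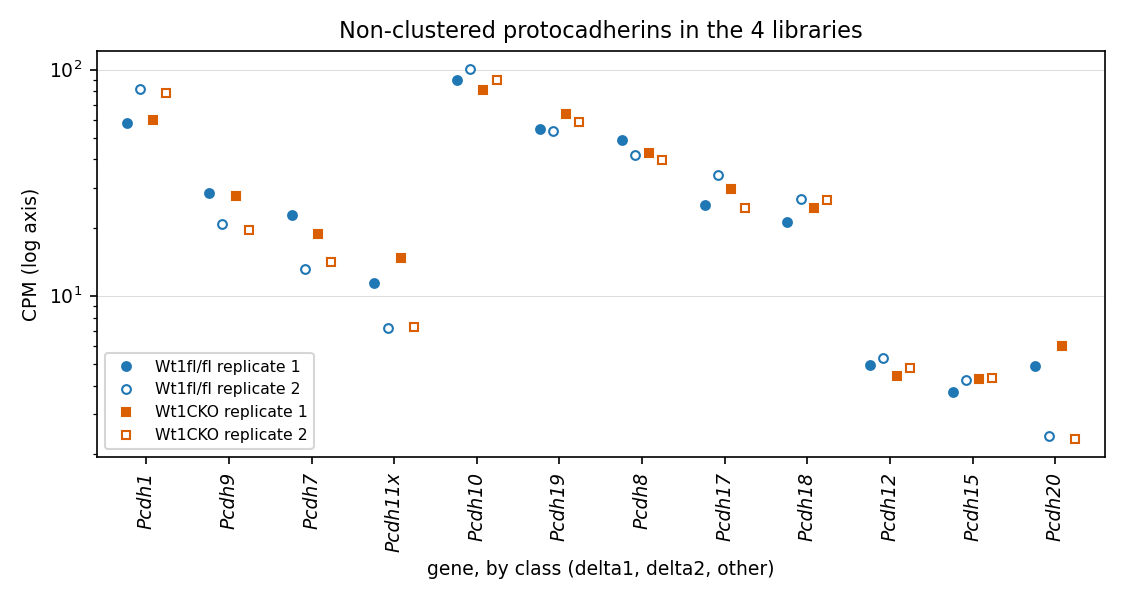
CPM on a log y axis for the 12 non-clustered protocadherins, grouped as delta1 (the first 4), delta2 (the next 5) and other, with Wt1fl/fl as blue circles, Wt1CKO as orange squares, replicate 1 filled and replicate 2 open. For Pcdh7, Pcdh9, Pcdh11x and Pcdh20 both open symbols lie below both filled ones, and for Pcdh1 both lie above.

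Over all 61 protocadherins both libraries of number 2 exceeded both of number 1 for 11 genes, 18.03% against 25.2% of all genes, and both lay below for 11, 18.03% against 24.3%. Of the 20 beta and 9 alpha genes tested, 0 were called, with 1 beta gene and 0 alpha genes at an unadjusted p under 0.05, beside 20.8% of all genes. Low counts limit this comparison: the highest count in any library was 161 for the beta genes and 111 for the alpha genes. After Pcdhgc3, the clustered genes with the smallest p were Pcdhgb5 and Pcdhga2. Pcdhgb5 had 7.40 and 8.08 CPM in number 1 and 5.88 and 4.95 CPM in number 2, Wt1fl/fl then Wt1CKO (edgeR adjusted p = 0.172). Pcdhga2 had 2.28 and 4.91 against 4.48 and 6.18 CPM, with overlap (edgeR adjusted p = 0.183).

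**Figure D5:**
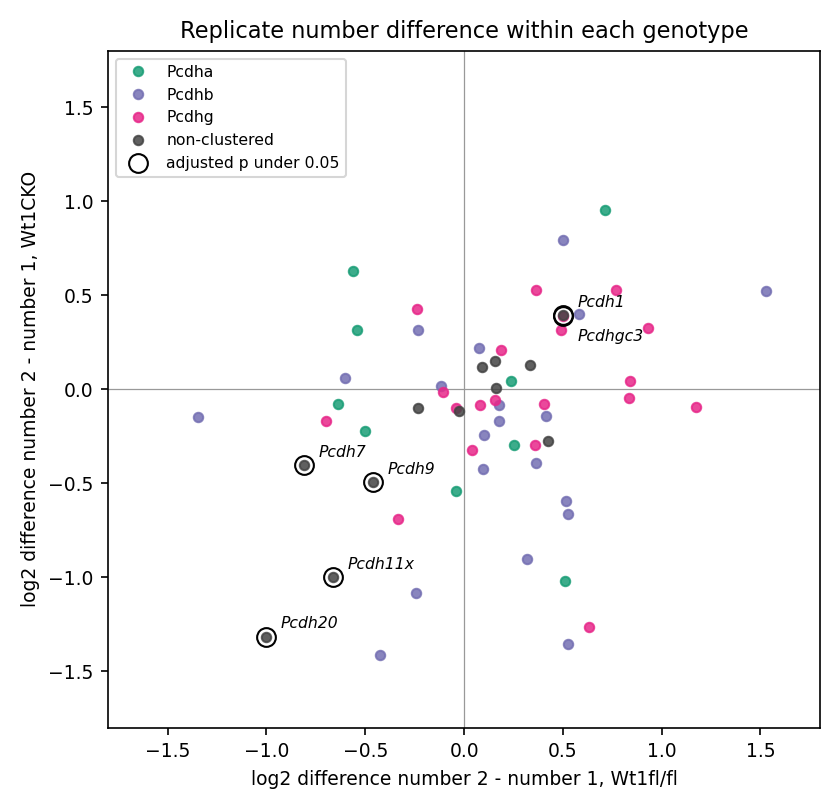
Each point is 1 of 61 protocadherins, with the log2 difference number 2 minus number 1 within Wt1fl/fl on the x axis and within Wt1CKO on the y axis, coloured by family, and a ring around genes past an adjusted p of 0.05. Pcdh7, Pcdh9, Pcdh11x and Pcdh20 lie below 0 on both axes, and Pcdh1 and Pcdhgc3 lie together at 0.50 and 0.39.

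Markers of regions and cell types moved with the number as well, by the same edgeR test, which called 7.14% of all genes. Of 10 dorsal telencephalon markers 7 were lower in number 2, and their summed CPM was 2719 and 2998 in number 1 against 1907 and 2225 in number 2. Of 12 ventral telencephalon markers 8 were higher, with sums of 1366 to 1652 against 1953 to 2211. The dorsal list was thus lower and the ventral list higher in both libraries of number 2. Red blood cell genes were higher for 7 of 8, with sums of 684 and 737 against 1666 and 1704. Of 11 radial glia markers 3 were higher (sums 2855 and 2920 against 3174 and 3363), and of 12 neuron markers 1 was higher and 2 were lower (6091 and 6383 against 5559 and 6034). Of 9 meningeal markers tested 3 were higher (53.7 and 61.8 against 81.3 and 111.9), and of 10 diencephalon markers 2 were higher. The remaining 4 lists were called as follows. Of 10 endothelial markers 0 were called (134.8 and 142.0 against 144.5 and 156.3), and of 6 Cajal-Retzius markers 1 was lower (256.7 and 322.1 against 212.9 and 219.6). Of 7 microglia markers 1 was lower, and of 4 choroid plexus markers tested 1 was higher. No gene of these lists that the tables hold was at 0 in any library. The part of these markers in the protocadherin differences was not tested, and in bulk tissue fewer cells of a type and less RNA per cell cannot be told apart. In the genotype contrast 0 markers of any of the 11 lists were called. The 10 diencephalon markers had a median log2 difference of -1.24 there, and Olig3 had 11.2 and 9.14 CPM in Wt1fl/fl and 1.19 and 1.05 CPM in Wt1CKO (edgeR adjusted p = 0.118).

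The genes that act around the protocadherins were described from 5 lists of 88 genes. Not all of the 88 could be tested, and 0 of those tested passed the test between genotypes. Their calls between the numbers stand beside 7.14% of all genes tested. For the 24 listed regulators of the clusters, such as CTCF, cohesin and DNA methylation enzymes, the median log2 difference between genotypes was 0.08, with Pds5a, a cohesin release factor, at 131.3 and 121.0 CPM in Wt1fl/fl and 154.4 and 140.3 CPM in Wt1CKO. Zfp143, a factor at chromatin loops, had 36.9 and 34.2 against 42.8 and 39.6 CPM. Both were higher in Wt1CKO without overlap, and neither passed the test. Between the numbers, 2 of the 24 were higher in number 2: Dnmt3a, a DNA methyltransferase, with 168.3 and 171.6 CPM in number 1 and 213.9 and 223.4 in number 2 (edgeR adjusted p = 0.0133), and Tet3, a DNA demethylation enzyme, with 178.5 and 186.7 against 249.4 and 245.1 (edgeR adjusted p = 0.00363). Stag2, a cohesin subunit, was lower, with 127.1 and 173.3 against 114.7 and 122.1 (edgeR adjusted p = 0.0410).

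Of the 9 genes of the WAVE complex, an actin regulator that some delta2 protocadherins recruit, 0 were called in either contrast. Wasf1 had 88.2 and 98.1 CPM in Wt1fl/fl and 79.0 and 84.6 CPM in Wt1CKO, and Brk1 had 119.9 and 106.5 against 100.2 and 105.7 CPM. Both genes had lower values in both Wt1CKO libraries than in the Wt1fl/fl library of the same number. Of 21 signalling and processing partners, such as kinases and gamma-secretase subunits, 1 was called between the numbers, Nlgn2, which was higher in number 2. Among them Psenen had 44.6 and 45.0 CPM in Wt1fl/fl and 36.8 and 39.2 CPM in Wt1CKO, and the kinase Fyn had 226.5 and 227.7 against 199.6 and 195.7 CPM. Both were lower in Wt1CKO without overlap and did not pass the test. Of 16 classical and related cadherins tested, Cdh22 was higher in number 2, and Cdh10 and Cdh13 were lower. Over all genes tested, 7.14% were called between the numbers, the share to set beside each list here. Cdh13 had 53.3 and 63.6 CPM in number 1 and 34.9 and 35.4 CPM in number 2 (edgeR adjusted p = 0.000427). In the genotype contrast Cdh1 had 0.617 and 0.874 CPM in Wt1fl/fl and 0.282 and 0.583 CPM in Wt1CKO, and Cdh7 had 12.1 and 12.2 against 16.6 and 12.8 CPM. Of 14 large cadherins tested, 1, Cdhr1, was lower in number 2. Celsr1, a planar polarity cadherin, had 161.9 and 142.4 CPM in Wt1fl/fl and 198.6 and 182.9 CPM in Wt1CKO, and Fat4, a large cadherin that binds Dchs1, had 107.9 and 118.3 against 147.1 and 130.0 CPM. Neither passed the test (edgeR adjusted p = 1).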

How the data were processed

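RNA-seq of 4 mouse brain libraries was deposited as 2 tables, each with 1 Wt1fl/fl and 1 Wt1CKO library of the same number. Per the file headers the tables hold whole-number counts per Ensembl gene. The authors also deposited CPM, a fold ratio, its log2 value, and p-values and adjusted p-values of 1 library against 1 library. Poly(A) RNA was selected on oligo(dT), per the labels' protocols. Reads were processed on build mm9 with TopHat2 2.0.12, Bowtie2 2.2.3 and HTSeq 0.6.0, per the submitters' processing notes. Counting mode and strand are not given in the sources used here. Positions were compared with GENCODE vM21 on GRCm38, where 20590 of 22368 gene IDs found (92.1%) and 63 of the 65 protocadherins had the same position, so positions are given on GRCm38.

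Members and gene lists were chosen with earlier results of these data known. Genes in both tables were kept by filterByExpr (minimum count 10), scaled by TMM and tested with the quasi-likelihood test of edgeR 4.0.16 in R 4.3.3, with Benjamini-Hochberg adjustment over all genes and a threshold of 0.05, for genotype alone and for replicate number with genotype as a term. The common biological coefficient of variation was 0.171 and 0.108. CPM in the text is the count scaled to the listed library total, without TMM. For genotype, an SE comes from the SDs of log2 CPM (prior count 2) of 2 libraries per group. For number, it comes from the gap between the 2 within-genotype differences. Either SE is imprecise and is not the spread the test uses. Within-number and within-genotype differences use the same log2 CPM. Unshared exon bases are from GENCODE vM21. Promoters are from RefSeq on GRCm38.p6. The listed libraries held 16219310 to 17704698 counts.

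Named genes were every non-clustered and C-type gene, per cluster the 3 highest and 2 lowest per kb, and every called member. Also named were the 3 clustered genes with the smallest p per contrast. Of each pathway list, the 2 genes with the smallest genotype p were named. Every pathway list gene called between the numbers was named too, so these genes were chosen by their outcome. The tests were checked on simulated data. Alternatives were a replicate block, leaving out each library, DESeq2 1.42.0 and its size factors, limma-voom (limma 3.58.1), other low-count filters, genes of either table and, added after the data were seen, protein-coding genes only and number alone on 3 libraries.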

Additional observations from a re-analysis of the deposited data

How the results depend on the processing

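The count of protocadherins called between genotypes was 0 under every alternative that kept all libraries, including the replicate block. With the block, 5 of 61 had an unadjusted edgeR p under 0.05. The share of all genes under that p was not counted in this fit. The 5 therefore have no background beside them and give no result about protocadherins. Over all genes the genotype count of 1 became 42 with the replicate block, 5 with DESeq2, 0 on protein-coding genes only and 3 to 73 when a library was left out. The deviations of same-numbered samples correlated at 0.281 over 15933 genes and at 0.398 over 10140 genes of at least 10 CPM. No label pairs the samples, so the block was not the main design, and what a number shares was not tested. The 6 protocadherins called between the numbers became 2 without the genotype term and 0 with DESeq2, and the 1138 genes called in all became 313 and 281. The cause was not tested. The median log2 difference between the numbers was -0.08 for Pcdha and became -0.02736 with no filter on low counts, and -0.08411 to -0.04561 without a library. For the non-clustered genes it ran from -0.1079 to 0.0341 without a library. For Pcdhb it ran from -0.16 to 0.19 and for Pcdhg from -0.05 to 0.37, so each changed sign. Leaving out a library leaves no spread to test on with both terms. With number alone, added after the data were seen, 0 to 4 protocadherins and 71 to 940 genes in all were called: 132 without Wt1fl/fl replicate 1, 71 without Wt1CKO replicate 1, 440 without Wt1fl/fl replicate 2 and 940 without Wt1CKO replicate 2. In these fits the group left with 1 library is assumed to vary like the other. With all exon bases the median level per kb was 0.2116 for Pcdha and 0.9645 for Pcdhg. Of the 6 called protocadherins none was reversed by an alternative, and genes of other lists were not run under them. Depth limits the alpha genes most, whose highest count in any library was 111.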

Other observations

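Pcdhgb8, a gamma cluster gene of biotype polymorphic_pseudogene on chr18:37761801-37841870 (GRCm38) and therefore outside the rule, had 44 counts in Wt1fl/fl replicate 1, 12 in Wt1fl/fl replicate 2, 43 in Wt1CKO replicate 1 and 52 in Wt1CKO replicate 2. The library of Wt1fl/fl replicate 2 was the lowest of the 4. It was not tested as a member, and it was chosen after its values were seen.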
